A study of Mus musculus with 8 samples.

Results

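The CCN genes *Ctgf*, *Cyr61*, *Wisp1*, *Nov* and *Wisp2* were followed across pancreatic ductal adenocarcinoma (PDAC) cells with Smad4 depleted or restored, under TGFβ1 or under an inhibitor of its receptor. They were chosen by name, in the older symbols that the deposited table uses, and make up 5 of its 53465 genes. All 5 passed the filter on low counts, among 14301 genes tested. RNA-seq covered 8 libraries of the PDAC lines B73 and B87, which were established from primary tumors of KC-shSmad4 mice (2 lines). In these mice *Ptf1a-Cre*, active in the embryonic pancreas, acted on the conditional alleles, and a Rosa26 allele supplied the Dox-dependent transactivator rtTA3 with the reporter mKate2. A GFP-linked hairpin against *Smad4* sat in the *Col1a1* locus. The model used 2 such hairpins, and which of them each line carries is not given in the sources used here.

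All groups of a line therefore carried the same alleles and differed in Dox and treatment. Dox keeps the hairpin expressed (Smad4 off), and 5 days of Dox withdrawal restored *Smad4* (Smad4 on). Cells of either state were then plated. After 24 h they received 100 pM recombinant mouse TGFβ1 or 2.5 µM SB505124, which blocks the TGFβ type I receptor kinase, for 24 h. Each of the 4 groups held 1 library of each line (n = 2), so within a group the lines and the single cultures cannot be told apart. Libraries with a control hairpin or without treatment were not analysed here. A Smad4 comparison is thus also a comparison of Dox, and the 2 cannot be told apart. A TGFβ1 comparison sets stimulated cells against inhibited cells.

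CCN proteins are secreted matricellular factors: they sit in the extracellular matrix, bind integrins, heparan sulfate proteoglycans and growth factors, and change how cells adhere and signal. *Ctgf* (CCN2) and *Cyr61* (CCN1) are the best known targets of YAP and TEAD, of the MRTF-SRF pathway and, for *Ctgf*, of TGFβ, and CTGF is a familiar component of the fibrotic stroma of PDAC. *Wisp1* (CCN4) and *Wisp2* (CCN5) were named as genes induced by Wnt1, and *Nov* (CCN3) often runs opposite to *Ctgf* in fibrosis. Most family members share 4 modules, and CCN5 lacks the C-terminal cystine-knot module. In the annotation its longest reading frame had 251 codons, against 348 for *Ctgf*, 379 for *Cyr61*, 354 for *Nov* and 367 for *Wisp1*.

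On GRCm38, *Ctgf* (ENSMUSG00000019997) lies at chr10:24595442-24598683 on the plus strand. *Cyr61* (ENSMUSG00000028195) lies at chr3:145646976-145649981 on the minus strand. *Nov* (ENSMUSG00000037362) and *Wisp1* (ENSMUSG00000005124) share a chromosome, at chr15:54745702-54754039 and chr15:66891320-66923201, both on the plus strand. *Wisp2* (ENSMUSG00000027656) lies at chr2:163820861-163833146 on the plus strand. The longest coding transcript of each gene had 5 exons. *Ctgf* alone shared transcript sequence with another gene: 14.6% of its 75-base stretches also occur, on the opposite strand, in *Gm15270*, which had between 2 and 6 counts per library.

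The RefSeq table of promoters (GRCm38.p6) held 1 of the 5 genes, *Cyr61*. Its 250 bases before the transcript start (chr3:145649986-145650235, minus strand) are printed because *Cyr61* is a textbook YAP and TEAD target and was called in both TGFβ1 comparisons below. Capitals mark, from 5′ to 3′, the TEAD core CATTCC, the letters CGTCA (the partial CRE TGACG read on the other strand) and the TATA box TATAAA.

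Cyr61: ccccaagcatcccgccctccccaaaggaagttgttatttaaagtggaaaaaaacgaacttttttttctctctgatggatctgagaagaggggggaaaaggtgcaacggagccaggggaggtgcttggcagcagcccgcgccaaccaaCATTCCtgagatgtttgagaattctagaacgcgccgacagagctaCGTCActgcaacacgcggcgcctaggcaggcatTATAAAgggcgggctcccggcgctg

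The TEAD core began 103 bases before the start, the partial CRE 58 and the TATA box 25. Searching both strands of 32851 promoter windows of the same length, 12.6% held CATTCC, 17.8% held TGACG and 12.4% held TATAAA. No CArG box (the SRF motif, in 1.47% of windows), TGANTCA (AP-1, 6.75%), CAGACA (a SMAD-binding motif, 17.1%) or TGACGTCA (the full CRE, 1.55%) was in this window. The partial site is contained in the full site, so these motifs overlap by construction. The matches describe letters only.

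Library totals ran from 18389235 to 23440550 counts, and 3 counts, taken as the floor, correspond to 0.125 to 0.162 CPM (counts scaled to a common library size). *Smad4* itself was at 33.7 to 35.5 CPM in the 4 Smad4 off libraries and at 97.4 to 117 CPM in the 4 Smad4 on libraries. Of 7 ductal epithelial markers, *Krt8* was at 236 CPM or more in every library, whereas *Epcam* reached at most 2.11 CPM. The summed level was 1690 to 6210 CPM under SB505124 and 1220 to 5790 CPM under TGFβ1. *Krt19* was called lower under TGFβ1 in both Smad4 states (-2.33 with Smad4 on and -1.46 with Smad4 off in log2 units, edgeR adjusted p = 0.000454 and 0.0067). *Cdh1* was called lower with Smad4 on (-2.31, edgeR adjusted p = 0.00936), and none of the 7 was called higher. Fibroblasts are a main source of CCN proteins in tumors. The 7 fibroblast markers summed to 3.4 to 33.9 CPM under SB505124 and 3.83 to 24.1 CPM under TGFβ1, with *Lum* at 0 and *Dcn* and *Thy1* at 3 counts or fewer in every library and *Pdgfrb* the highest, at up to 27.2 CPM. The 4 endothelial markers summed to 0.648 to 5.14 CPM under SB505124 and 3.32 to 26 CPM under TGFβ1, with *Emcn* at 0. Most of that was *Kdr* (up to 25.2 CPM) or, with Smad4 on under TGFβ1 in B73, *Cdh5* (2.76 CPM). *Cdh5* was called higher under TGFβ1 in both Smad4 states (3.79 with Smad4 on and 4.08 with Smad4 off in log2 units, edgeR adjusted p = 0.00177 and 0.0117), and *Kdr* with Smad4 off (2.02, edgeR adjusted p = 0.00615). In the Smad4 comparison under TGFβ1, *Kdr* was called lower with Smad4 on (-3.35, edgeR adjusted p = 0.00289). The part of these marker changes in the results was not tested. Immune markers (4, summed 1.33 to 6.34 CPM, *Cd3e* at 0) and acinar markers (4, 0.499 to 1.37 CPM, *Cpa1* and *Amy2a2* at 0) stayed low.

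*Ctgf* and *Cyr61* dominated the family. Per kilobase of listed transcript length, the 5 genes summed to 122 to 197 CPM per kb under SB505124 and to 630 to 1736 CPM per kb under TGFβ1, without overlap. *Ctgf* made up 22.3% to 59.2% of that sum and *Cyr61* 39% to 75.3%. In B87 with Smad4 on, *Ctgf* ranked 776 among all genes per kilobase under SB505124 and 23 under TGFβ1. The ratio of *Ctgf* to *Cyr61* per kilobase was 1.52 in B73 with Smad4 off under SB505124 and 0.296 with Smad4 on. In B87 the same ratio was 1.05 and 0.535. Under TGFβ1 the 4 ratios lay between 0.891 and 1.12, so the 2 genes were at similar levels per length whatever the Smad4 state.

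**Figure D1:**
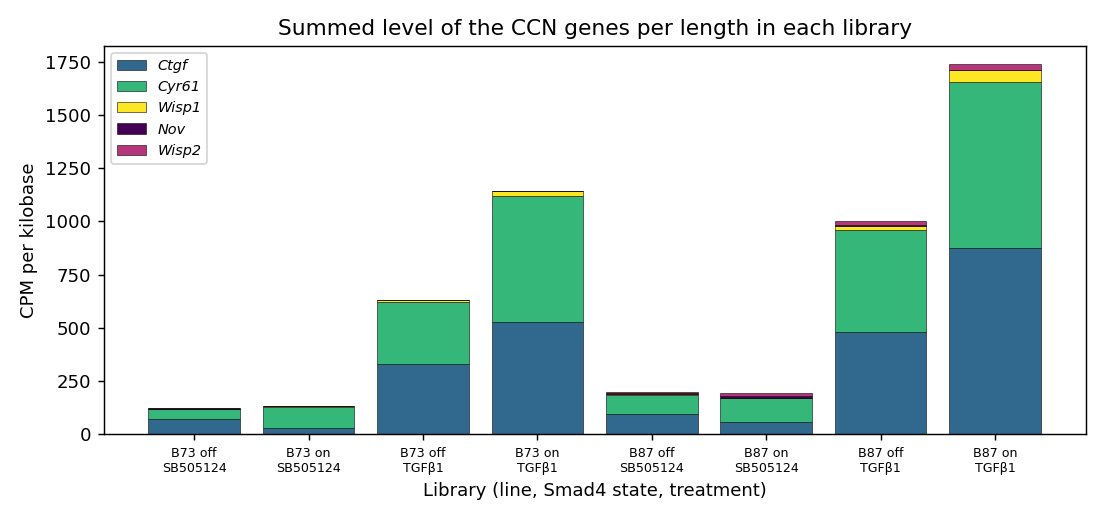
Summed level of the 5 CCN genes in CPM per kilobase (y axis, from 0) in each of the 8 libraries (x axis: line, Smad4 state, treatment), with 1 colored segment per gene. The 4 TGFβ1 libraries reached 630 to 1736 CPM per kb against at most 197 under SB505124, and *Ctgf* and *Cyr61* filled most of every bar.

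The first question was how the family responded to TGFβ1. With Smad4 on, 4 of 5 genes were called: *Ctgf*, *Cyr61* and *Wisp1* rose and *Nov* fell. A gene was called when its change passed 2-fold with an adjusted p under 0.05 in edgeR's quasi-likelihood test across all tested genes. Of all tested genes, 13.9% were called in this comparison, 5.62% higher and 8.31% lower. With Smad4 off, all 5 genes were called, 4 higher and *Nov* lower, against 5.93% of all genes (3.11% higher, 2.82% lower). The median log2 fold change of the 5 genes was 2.68 with Smad4 on and 2.26 with Smad4 off, beside -0.02 for all tested genes in either state.

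*Ctgf*, the profibrotic member, was at 207 CPM (Smad4 off) and 85.5 CPM (Smad4 on) under SB505124 in B73, and at 273 and 168 CPM in B87. Under TGFβ1 it was at 940 and 1511 CPM in B73 and at 1377 and 2501 CPM in B87. Every TGFβ1 library was above every SB505124 library. The log2 fold change was 4.01 ± 0.15 (SE) with Smad4 on, a 16.1-fold rise (edgeR adjusted p = 3.4e-05), with 4.14 in B73 and 3.89 in B87. With Smad4 off it was 2.26 ± 0.14, a 4.77-fold rise (edgeR adjusted p = 0.000597), with 2.18 and 2.33. In these bulk samples, fewer cells expressing a gene and less RNA per cell cannot be told apart.

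*Cyr61*, an immediate-early gene and integrin ligand, was at 96.1 CPM (Smad4 off) and 204 CPM (Smad4 on) under SB505124 in B73, and at 183 and 222 CPM in B87. Under TGFβ1 the levels were 592 and 1197 CPM in B73, and 964 and 1570 CPM in B87. The 2 treatments did not overlap. Its log2 fold change was 2.68 ± 0.19 with Smad4 on (6.4-fold, edgeR adjusted p = 0.000187) and 2.50 ± 0.19 with Smad4 off (5.64-fold, edgeR adjusted p = 0.000862). Both lines alone gave values between 2.40 and 2.82.

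*Wisp1*, a family member of lower abundance, had the smallest SE of the 5 genes. Its level was 4.34 and 6.97 CPM (Smad4 off, Smad4 on) under SB505124 in B73 and at 13.3 and 23.2 CPM in B87. Under TGFβ1 it was at 41.2 and 108 CPM in B73 and at 125 and 318 CPM in B87. The TGFβ1 libraries lay above all SB505124 libraries, although B73 was below B87 in every condition. The log2 fold change was 3.85 ± 0.09 with Smad4 on (14.5-fold, edgeR adjusted p = 5.72e-06). With Smad4 off it was 3.24 ± 0.09 (9.46-fold, edgeR adjusted p = 3.15e-05), and there *Wisp1* ranked 1 of 14301 genes by p.

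*Nov*, the member that often opposes *Ctgf*, was the one called lower. In B73 it was at 3.39 and 4.59 CPM (Smad4 off, Smad4 on) under SB505124, and at 0.557 and 0.255 CPM under TGFβ1, the last from 5 counts. In B87 it was at 14.2 and 26.7 CPM under SB505124, and at 4.93 and 4.08 CPM under TGFβ1. The treatments overlapped across the lines but not within a line. *Nov* fell by 3.01 ± 0.37 with Smad4 on in log2 units (edgeR adjusted p = 0.00137; B73 -3.74, B87 -2.68). With Smad4 off it fell by 1.93 ± 0.36 (edgeR adjusted p = 0.0169; B73 -2.42, B87 -1.51). That second call was lost without either Smad4 off, TGFβ1 library, with edgeR adjusted p = 0.0934 without B73 and 0.107 without B87.

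*Wisp2*, the short member, was called higher with Smad4 off, by 2.07 ± 0.53 in log2 units (edgeR adjusted p = 0.0469), and not with Smad4 on, though the difference between the states was not called either. The levels came from B87. There it was at 6.24 and 23.7 CPM (Smad4 off, Smad4 on) under SB505124 and at 33.3 and 49.1 CPM under TGFβ1. In B73 it was between 0.3 and 0.594 CPM throughout, from 6 to 11 counts per library, and the exact 95% Poisson intervals of the 4 counts overlap. The change with Smad4 off was 2.40 in B87 and -0.32 in B73. It became -0.11 without the B87 Smad4 off, SB505124 library, and the call was also lost with DESeq2 (log2 1.03, adjusted p = 0.608), without the B87 Smad4 on, SB505124 library (edgeR adjusted p = 0.0597) and without either Smad4 off, TGFβ1 library (0.0869 without B73, 0.733 without B87). With Smad4 on the change was 0.77 ± 0.47 (edgeR adjusted p = 0.252), with 1.05 in B87 and -0.78 in B73.

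Each line went through all conditions and served as the replicate block of the model. With no replicate block in edgeR, 2 of the 5 genes (*Ctgf* and *Cyr61*) were called with Smad4 on and 1 (*Cyr61*) with Smad4 off. Of all 14301 genes, 1035 and 168 were called in that fit. *Wisp1* then had edgeR adjusted p = 0.0542 and 0.176, *Nov* 0.289 and 0.654, and *Wisp2* with Smad4 off 0.741, although their log2 fold changes stayed at 3.81 and 3.23, -2.85 and -1.69, and 2.33. *Ctgf* with Smad4 off had log2 2.27 and adjusted p = 0.0671 in that edgeR fit. In DESeq2 with no replicate block, *Ctgf*, *Cyr61* and *Wisp1* stayed called in both Smad4 states. *Ctgf* with Smad4 off had log2 2.28 there (DESeq2 adjusted p = 3.82e-08). That fit called 1363 of all genes with Smad4 on and 479 with Smad4 off.

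**Figure D2:**
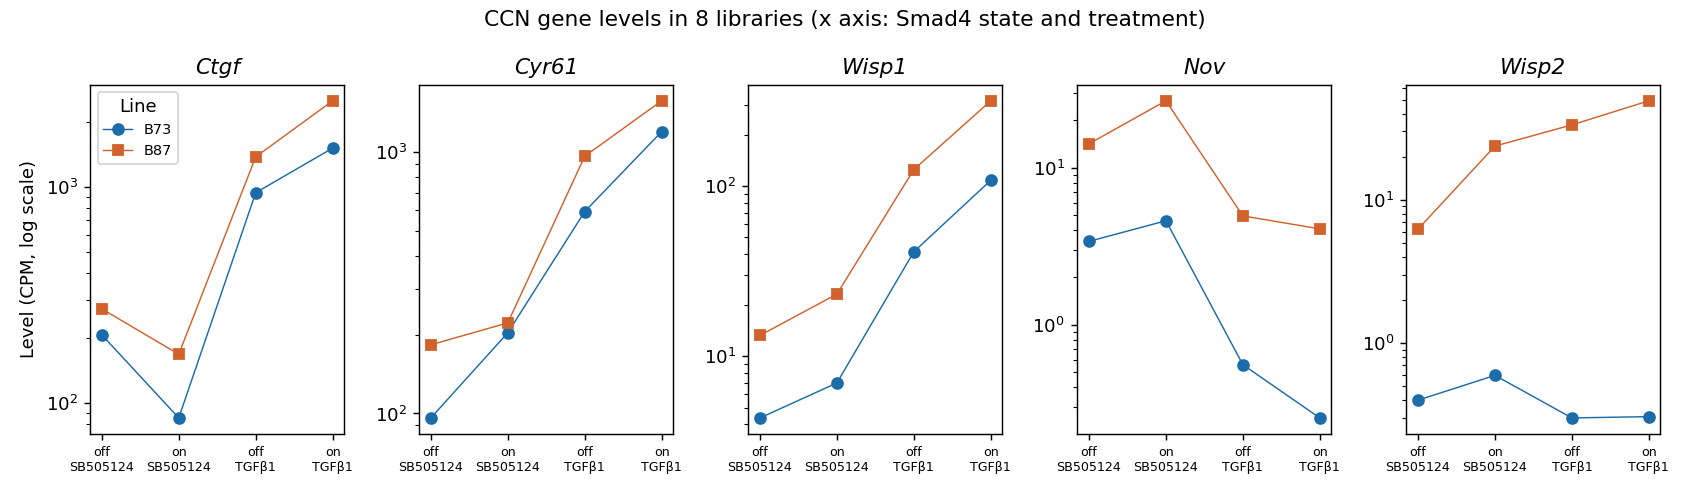
Level of each CCN gene in CPM (y axis, log scale, own range per panel) in the 8 libraries, by Smad4 state and treatment (x axis), with 1 point per library and lines joining the libraries of B73 (circles) and B87 (squares). *Ctgf*, *Cyr61* and *Wisp1* were higher and *Nov* lower under TGFβ1 in both lines, and *Wisp2* stayed at or under 0.594 CPM in B73.

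The next question was what Smad4 changed at a fixed treatment. Under TGFβ1, 1 of 5 genes was called, *Wisp1*, which rose in Smad4 on cells, against 3.12% of all genes (1.31% higher, 1.8% lower). *Ctgf* and *Cyr61* also passed the adjusted p, at changes below 2-fold. The median over the 5 genes was 0.77 on the log2 scale, beside -0.01 over all tested genes.

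From the levels above, *Wisp1* stood at 41.2 CPM (off) against 108 CPM (on) in B73, and at 125 CPM (off) against 318 CPM (on) in B87. The log2 fold change was 1.37 ± 0.08 (edgeR adjusted p = 0.000902), at 1.39 and 1.34 in the lines. The Smad4 groups overlapped across the lines, because the B73 level with Smad4 on lay below the B87 level with Smad4 off. With no replicate block the log2 fold change was 1.36 and the call was lost (edgeR adjusted p = 0.592, and 0.645 with DESeq2).

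*Ctgf* was higher with Smad4 on under TGFβ1 by 0.77 ± 0.14 (edgeR adjusted p = 0.023), and its Smad4 groups did not overlap. *Cyr61* was higher by 0.86 ± 0.18 (edgeR adjusted p = 0.0376), also without overlap. Neither reached 2-fold. The adjusted p rose above 0.05 for both genes without any 1 of the 4 TGFβ1 libraries (edgeR 0.0878 to 0.157 for *Ctgf* and 0.089 to 0.276 for *Cyr61*), and with no replicate block (edgeR 0.479 and 0.402). *Nov* had -0.39 ± 0.40 (edgeR adjusted p = 0.599) and *Wisp2* 0.49 ± 0.45 (edgeR adjusted p = 0.554), and neither passed the test.

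Under SB505124, 0 of 5 genes were called by edgeR, against 1.09% of all genes (0.636% higher, 0.455% lower), and DESeq2 with the line also called 0. At an unadjusted p under 0.05 stood 1809 of all genes. *Ctgf* and *Wisp1* passed the adjusted p below the 2-fold limit, in opposite directions. *Ctgf* was lower with Smad4 on, at -0.98 ± 0.14 (edgeR adjusted p = 0.0242; B73 -1.27, B87 -0.70), and its groups did not overlap. *Wisp1* was higher by 0.76 ± 0.10 (edgeR adjusted p = 0.0161; B73 0.67, B87 0.80). *Cyr61* had 0.68 ± 0.18 (edgeR adjusted p = 0.165), with 1.08 in B73 and 0.28 in B87. *Nov* had 0.69 ± 0.32 (edgeR adjusted p = 0.441) and *Wisp2* 1.80 ± 0.54 (edgeR adjusted p = 0.219), where B87 gave 1.91 and B73 0.48. Without 1 of the B87 libraries under SB505124, *Ctgf* passed the fold limit as well, at -1.15 without Smad4 off and -1.19 without Smad4 on (edgeR adjusted p = 0.041 and 0.0326). Without 1 of the B73 libraries under SB505124 it was at -0.81 (Smad4 off left out) and -0.78 (Smad4 on left out), with edgeR adjusted p = 0.124 and 0.136. With no replicate block the edgeR adjusted p was 0.941 for *Ctgf* and 1 for *Wisp1*, and *Wisp1* had edgeR adjusted p = 0.066 to 0.102 without any 1 of the 4 SB505124 libraries.

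**Figure D3:**
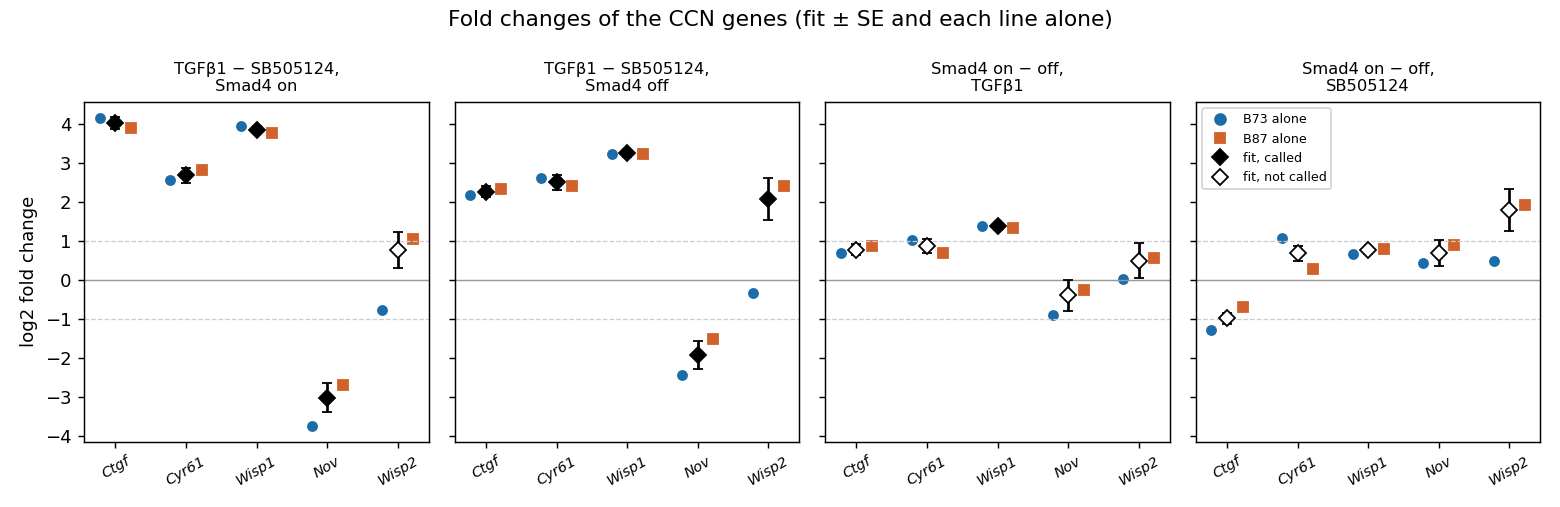
Log2 fold changes (y axis) of the 5 CCN genes in 4 comparisons (panels), as the fit over 8 libraries ± SE (diamonds, filled where called) and in B73 (circles) and B87 (squares) alone, with dashed lines at 2-fold. In the comparisons of TGFβ1 with SB505124, the lines lay close together for *Ctgf*, *Cyr61* and *Wisp1*, farther apart for *Nov* and farthest for *Wisp2*. In the Smad4 comparisons, *Ctgf* sat at -0.98 under SB505124 against 0.77 under TGFβ1.

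Whether the TGFβ1 response differed with Smad4 was tested by the interaction, to which 0.189% of all genes were called. *Ctgf* was the 1 member called: its response was larger by 1.75 ± 0.20 log2 units with Smad4 on (edgeR adjusted p = 0.0387; B73 1.96, B87 1.56). Its TGFβ1 response was thus 16.1-fold in one state and 4.77-fold in the other, built from a lower level under SB505124 and a higher level under TGFβ1 in Smad4 on cells. The size was 1.56 to 1.96 when single libraries were left out, but the call was lost without 7 of the 8 (edgeR adjusted p = 0.0509 to 0.177), and it held without the B87 Smad4 on, SB505124 library. With no replicate block it was lost as well (edgeR adjusted p = 1, DESeq2 0.104, log2 1.71 in both). *Wisp1* had 0.61 ± 0.12 (edgeR adjusted p = 0.163) and *Cyr61* 0.18 ± 0.25 (edgeR adjusted p = 0.863). *Nov* had -1.08 ± 0.51 (edgeR adjusted p = 0.525) and *Wisp2* -1.31 ± 0.70 (edgeR adjusted p = 0.581). The 4 comparisons share libraries, so their values are given side by side and not related to each other.

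Within a line, the levels of *Cyr61* and *Wisp1* were ordered in the same way in B73 and B87: Smad4 on with TGFβ1, Smad4 off with TGFβ1, Smad4 on with SB505124 and Smad4 off with SB505124, from high to low. For *Ctgf* the last 2 places were exchanged in both lines. *Nov* ran from Smad4 on with SB505124 down to Smad4 on with TGFβ1, again in both lines. Of neighbours that differed in Smad4 state alone, the 2 SB505124 states of *Cyr61* and *Nov* and the 2 TGFβ1 states of *Nov* had an adjusted p over 0.05. Neighbours that differed in both Smad4 state and treatment were not tested. *Wisp2* had no common order.

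The lines themselves differed in CCN levels. Averaged over the conditions, 3 of 5 genes were called higher in B87, *Wisp2*, *Nov* and *Wisp1*, against 8.37% of all genes (3.87% higher in B87, 4.5% lower). *Wisp2* was 64.6-fold higher in B87 by the fit (log2 6.01 ± 0.41, edgeR adjusted p = 0.000206). *Nov* was 6.35-fold higher (log2 2.67 ± 0.26, edgeR adjusted p = 0.000841). *Wisp1* was 3.07-fold higher (log2 1.62 ± 0.06, edgeR adjusted p = 2.5e-05). *Ctgf* and *Cyr61* differed by less than 2-fold, at 0.66 ± 0.10 (edgeR adjusted p = 0.00469) and 0.54 ± 0.13 (edgeR adjusted p = 0.0286). Cell type markers moved with the line as well. The 7 fibroblast markers summed to 3.4 to 4.24 CPM in B73 and 18.1 to 33.9 CPM in B87, led there by *Pdgfrb* (12.8 to 27.2 CPM) and *Pdgfra* (3.52 to 6.41 CPM). *Col1a2*, of the same list, went the other way, at 1.8 to 3.01 CPM in B73 and at most 0.255 CPM in B87. The 7 ductal markers summed to 3940 to 6210 CPM in B73 and 1220 to 2110 CPM in B87, with *Krt7* at 474 to 649 CPM against 12.6 to 28.7 CPM. The part of these markers in the line difference was not tested.

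The gap between the lines was even across conditions for *Wisp1*, with CPM ratios of B87 to B73 between 2.94 and 3.33. Under SB505124 the ratio for *Nov* was 4.18 with Smad4 off and 5.81 with Smad4 on. Under TGFβ1 it was 8.85 and 16, on B73 counts of only 13 and 5. For *Wisp2* it was 15.6 and 39.9 under SB505124 and 111 and 160 under TGFβ1, with the B73 counts near the floor. The difference of the TGFβ1 response between the lines was called by edgeR for 0 of 5 genes and 0% of all genes, with 1198 genes at an unadjusted p under 0.05 and 25 genes called by DESeq2. For *Wisp2* it was 2.24 ± 0.55 (edgeR adjusted p = 0.534), and 1.14 ± 0.39 for *Nov* (edgeR adjusted p = 0.566). With no filter on low counts the *Wisp2* difference was called (edgeR adjusted p = 0.0175). The difference of the Smad4 response between the lines was also called for 0 of 5 genes, against 0.392% of all genes and 1408 at an unadjusted p under 0.05, and DESeq2 called 0 of the 5. *Cyr61* had the lowest adjusted p of the 5, at -0.55 ± 0.15, with the smaller response in B87 (edgeR adjusted p = 0.246). Over 13 alternatives this *Cyr61* difference ran from -0.69 to -0.40 and never passed 2-fold. Its adjusted p fell under 0.05 in at least 1 of them, but not in all.

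**Figure D4:**
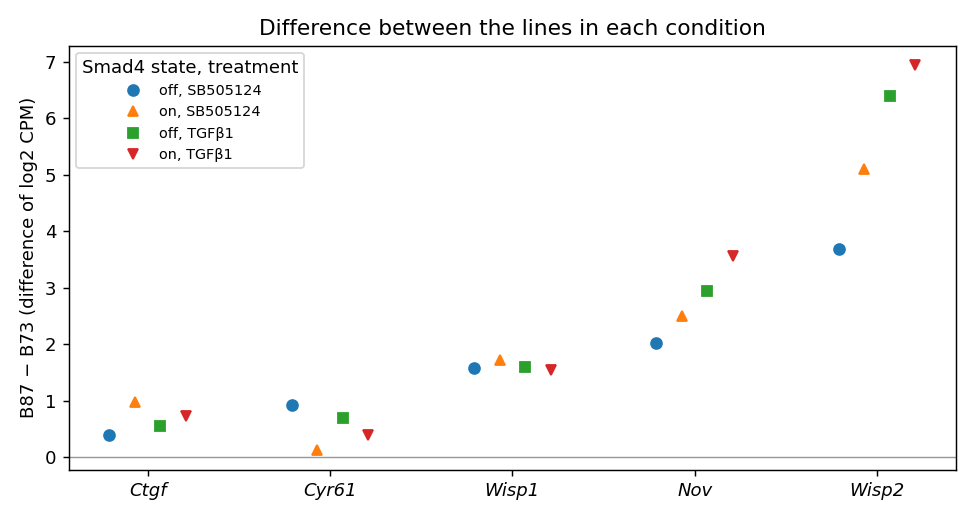
Difference between the lines, B87 minus B73 in log2 CPM (y axis), for the 5 CCN genes (x axis) in each of the 4 conditions (symbols, 1 library per line and condition, no error bar). *Wisp1* sat at nearly the same difference in all conditions, from 1.55 to 1.72, whereas *Wisp2* ran from 3.68 to 6.94.

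The sixth CCN gene, *Wisp3*, had between 1 and 7 counts in each library and did not pass the filter. Over the 8 libraries, Pearson's r of log2 CPM was 0.97 between *Cyr61* and *Wisp1*, 0.92 between *Ctgf* and *Wisp1* and 0.91 between *Ctgf* and *Cyr61*. *Nov* and *Wisp2*, the genes with the largest gap between the lines, had r = 0.66. These values rest on n = 8 libraries that share treatment and line, and carry no test. By the same measure, the most similar genes were *Mapk8*, *Cttnbp2nl* and *Xrcc5* for *Ctgf* (r = 0.99 each) and *Col7a1*, *Tssc1* and *Csrp1* for *Cyr61* (r = 0.99 each). For *Nov* they were *Zhx1* (r = 0.995), *Rnf10* (r = 0.987) and *Nid1* (r = 0.985). For *Wisp1* they were *Smurf1* (r = 0.993), *Armc5* (r = 0.991) and *Midn* (r = 0.989). For *Wisp2* they were *Pde4b* (r = 0.993), *CAAA01118383.1* (r = 0.992) and *Armcx1* (r = 0.989). Pearson's r takes no account of the size of a change: *Xrcc5* ran only from 77.4 to 105 CPM, whereas *Col7a1* ran from 10.1 to 1100 CPM.

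The genes around the family were read from lists of receptors, regulators and coregulated targets. Their counts stand beside the shares of all genes given above: for TGFβ1, 5.62% higher and 8.31% lower with Smad4 on and 3.11% and 2.82% with Smad4 off, and for Smad4 under TGFβ1, 1.31% higher and 1.8% lower. In that last comparison, a list with 1 call in a direction, like the CCN genes with 1 of 5, holds too few calls to be read against these shares. Of 15 CCN receptors and coreceptors, 13 were tested. With Smad4 on, 5 were called higher under TGFβ1 and 1 lower, at a median log2 fold change of 0.75. The risers included *Itga5* (2.52 ± 0.13, edgeR adjusted p = 8.71e-05), *Itgb3* (2.15 ± 0.38, 0.00582) and *Itgav* (1.53 ± 0.13, 0.000345), subunits of the fibronectin and vitronectin receptors that bind CTGF and CYR61. *Notch1*, a partner of NOV, fell by 1.47 ± 0.17 (edgeR adjusted p = 0.000994). With Smad4 off, 2 were called higher and 0 lower. In the Smad4 comparison under TGFβ1 1 was called in each direction: *Itga5* rose by 1.92 ± 0.13 (edgeR adjusted p = 0.00122), and the leukocyte integrin subunit *Itgb2* fell by 3.47 ± 0.23 (edgeR adjusted p = 0.00116). *Itgb2* also fell by 2.64 ± 0.22 under SB505124 (edgeR adjusted p = 0.00358), whereas *Itga5* had 0.38 ± 0.13 there (edgeR adjusted p = 0.295) and was called in the interaction (1.54 ± 0.18, edgeR adjusted p = 0.0461).

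All 20 genes of a YAP and TEAD target signature, taken without *Ctgf* and *Cyr61*, were tested. With Smad4 on, 8 were called higher under TGFβ1 and 0 lower, at a median of 1.01. *Gadd45a*, a growth arrest gene, rose by 3.12 ± 0.15 (edgeR adjusted p = 5.48e-05). *Ankrd1* rose by 2.33 ± 0.27 (edgeR adjusted p = 0.00111), the tissue factor gene *F3* by 2.31 ± 0.22 (edgeR adjusted p = 0.000522) and the kinase gene *Nuak2* by 1.80 ± 0.15 (edgeR adjusted p = 0.000302). With Smad4 off, 4 were called higher and 0 lower. The Smad4 comparison under TGFβ1 called 1 of 20, *F3*, which rose by 2.57 ± 0.22 (edgeR adjusted p = 0.00206).

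Of 12 YAP, TEAD and MRTF-SRF regulators, 11 were tested. With Smad4 on, 2 were called higher under TGFβ1 and 0 lower, at a median of 0.52. These were the TEAD cofactor gene *Vgll3* (2.21 ± 0.18, edgeR adjusted p = 0.000282) and *Mkl1*, which encodes MRTF-A (1.18 ± 0.08, edgeR adjusted p = 0.000176). With Smad4 off, 3 were called higher and 0 lower. *Vgll3* was also the 1 regulator called in the Smad4 comparison under TGFβ1, where it rose by 2.25 ± 0.18 (edgeR adjusted p = 0.00154), and it rose by 1.68 ± 0.20 under SB505124 as well (edgeR adjusted p = 0.0134).

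Of 14 MRTF-SRF targets, 13 were tested. With Smad4 on, 9 were called higher under TGFβ1 and 1 lower (*Tpm2*), at a median of 1.45. The smooth muscle actin gene *Acta2* rose by 2.08 ± 0.24 (edgeR adjusted p = 0.00109) and the focal adhesion gene *Zyx* by 1.80 ± 0.15 (edgeR adjusted p = 0.00034). With Smad4 off, 4 were called higher and 0 lower. In the Smad4 comparison under TGFβ1, 5 were called higher and 0 lower, at a median of 1.02, among them *Acta2* (2.51 ± 0.24, edgeR adjusted p = 0.00331) and *Zyx* (1.07 ± 0.15, edgeR adjusted p = 0.0107). *Acta2* also rose with Smad4 on under SB505124 (2.62 ± 0.26, edgeR adjusted p = 0.00714; interaction -0.12 ± 0.34), and *Zyx* had 0.28 ± 0.15 there (edgeR adjusted p = 0.513). The other actin genes, *Acta1* and *Actg2*, were called in both comparisons from few counts: *Acta1* had 321 (B73) and 149 (B87) counts with Smad4 on under TGFβ1 and at most 11 in any other library, and *Actg2* had 23 and 12 against at most 6.

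Of 12 Wnt and β-catenin targets, 9 were tested. With Smad4 on, 1 was called higher under TGFβ1 and 4 lower, at a median of -0.68. *Apcdd1*, a Wnt inhibitor, fell by 1.57 ± 0.11 (edgeR adjusted p = 0.000162), and *Notum*, which inactivates Wnt ligands, fell by 2.65 ± 0.63 (edgeR adjusted p = 0.0182). The *Notum* counts with Smad4 on were 8 under SB505124 and 3 under TGFβ1 in B73, against 123 and 12 in B87. In the lines alone it changed by -1.09 in B73 and -2.88 in B87. The stem cell receptor *Lgr5* was called lower on 1 and 0 counts with Smad4 on under TGFβ1, against 9 and 17 under SB505124 and 33 and 23 with Smad4 off under TGFβ1. The call of *Lef1* rested on 1 and 24 counts against 0 and 0. With Smad4 off, 1 was called higher and 0 lower. *Lgr5* was the 1 gene called in the Smad4 comparison under TGFβ1, also lower.

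**Figure D5:**
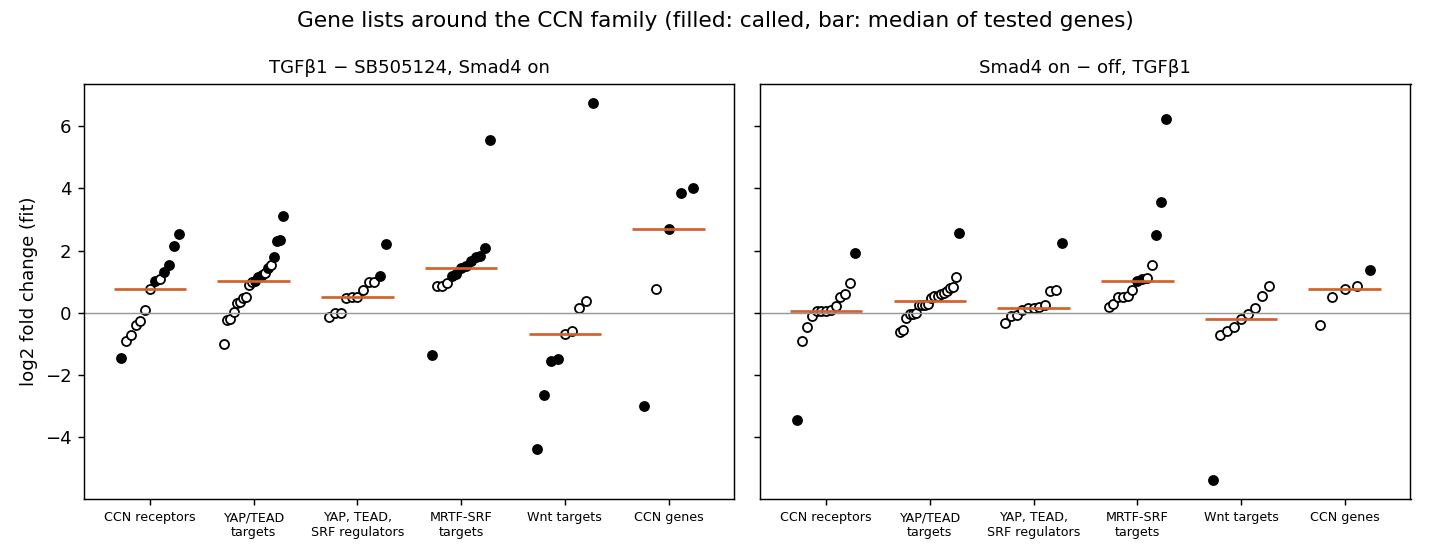
Fitted log2 fold changes (y axis) of the tested genes of 5 lists and of the 5 CCN genes (x axis), for TGFβ1 against SB505124 with Smad4 on (left) and Smad4 on against off under TGFβ1 (right), with 1 point per gene, filled where called, and a bar at the median. The medians on the left were 2.68 for the CCN genes, 1.45 for the MRTF-SRF targets, 1.01 for the YAP and TEAD targets and -0.68 for the Wnt targets.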

How the data were processed

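Cells were grown, treated and sequenced by the authors as stranded poly(A) libraries (75-bp single-end reads). Per the submitters' processing notes and the methods, reads were checked with FastQC 0.11.5, trimmed with Trimmomatic 0.36, aligned to GRCm38 (mm10) with STAR 2.5.3a and counted per gene with featureCounts 1.6.3. Strand and multimapping settings are not given in the sources used here. The deposited table holds raw counts, 1 column per library, and a transcript length per gene, which was used for levels per kilobase. Groups and lines came from the sample titles.

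Counts were tested with edgeR 4.0.16 in R 4.3.3 (TMM normalization, filterByExpr, quasi-likelihood F-test, Benjamini-Hochberg adjustment over 14301 genes) with group and line as terms and all 8 libraries in the fit. Calls needed an adjusted p under 0.05 and more than 2-fold change, the limits the study used with DESeq2. Standard errors are the log2 fold change over the square root of F. Values per line are differences of log2 CPM with a prior count of 2. CPM are counts over the total of tested genes times the TMM factor. Intervals and floors cover counting error only, since PCR copies cannot be told apart. Separate cultures per library are not stated, so p-values measure the spread between these libraries. Named genes were the 5 CCN genes, *Wisp3*, *Smad4*, up to 4 called genes with the largest change per list in 2 comparisons, and the 3 most correlated genes (mean log2 CPM of at least 1) per member; *Tpm2* and single cell type markers were named after their values were seen. The line pairs the libraries: line deviations from the group means correlated at r = 0.64 to 0.77 over 6 pairs of groups. The members and gene lists were chosen with earlier results of these data known. Alternatives were DESeq2 1.42.0 (with the line as a term, and group only), group-only edgeR, DESeq2 size factors, other filters, no fold limit, the 4 libraries compared alone, and each library left out. The scripts were tested on simulated counts. Sequences are from RefSeq, exons from GENCODE.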

Additional observations from a re-analysis of the deposited data

Results flagged for a closer look

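For *Ctgf*, the difference of the TGFβ1 response between the Smad4 states passed its own test: the interaction was 1.75 on the log2 scale (edgeR adjusted p = 0.0387), with the larger response in Smad4 on cells in both lines. The call was lost in 9 of 15 alternatives, which were 7 of the 8 libraries left out (edgeR adjusted p = 0.0509 to 0.177) and both fits with no replicate block (edgeR 1, DESeq2 0.104).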

How the results depend on the processing

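With no replicate block in edgeR, 0 of the CCN genes were called for Smad4 under TGFβ1, 2 for TGFβ1 with Smad4 on, 1 for TGFβ1 with Smad4 off and 0 for the interaction. With no replicate block in DESeq2 these were 0 (Smad4 under TGFβ1), 3 (TGFβ1 with Smad4 off) and 0 (interaction). Of all 14301 genes, 261, 479 and 40 were called in that fit. At least 10 counts in every library left *Nov* and *Wisp2* untested, with 3 called for TGFβ1 with Smad4 off and 1 for the line. Of the 11848 genes then tested, 519 and 488 were called. With no 2-fold limit, 3 were called for Smad4 under TGFβ1, 2 for Smad4 under SB505124 and 5 for the line. Of all 14301 genes, 973, 228 and 2660 were called without that limit. With no filter on low counts, *Wisp2* was called for Smad4 under SB505124 (1 called, edgeR adjusted p = 0.00185) and for the line difference of the TGFβ1 response (1 called). Of the 27770 genes then tested, 403 and 80 were called. With each library left out, counts ran from 0 to 1 for the interaction, 0 to 1 for Smad4 under SB505124 and 3 to 5 for TGFβ1 with Smad4 off. Line comparisons have no fit without the line, and only the comparisons of 2 groups have a fit of 4 libraries.

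Single log2 fold changes kept their direction and whether they were called, by adjusted p and fold together, in 513 of the values recomputed (the adjusted p alone could still cross 0.05); 26 lost a call, 10 gained one and 25 changed sign, each of these with a library left out. The ranges over single libraries left out were -0.32 to 0.24 (*Ctgf*, line difference of the TGFβ1 response), -0.38 to 0.44 (*Cyr61*, the same), -0.10 to 0.47 (*Cyr61*, interaction), -0.28 to 1.59 (*Nov*, line difference of the Smad4 response), -1.58 to 0.0064 (*Nov*, Smad4 under TGFβ1) and -0.033 to 0.13 (*Wisp1*, line difference of the Smad4 response). For *Wisp2* they were -0.47 to 2.34 (line difference of the Smad4 response), -2.76 to 0.91 (interaction), -0.41 to 2.68 (Smad4 under SB505124), -1.02 to 1.37 (Smad4 under TGFβ1), -0.11 to 2.38 (TGFβ1 with Smad4 off) and -0.77 to 1.01 (TGFβ1 with Smad4 on). The cause was not tested.

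Over all genes, edgeR with no replicate block called 36 (Smad4 under TGFβ1), 2 (Smad4 under SB505124), 1035 and 168 (TGFβ1 with Smad4 on and off, the latter 72% higher against 52.5% with the block) and 0 (interaction), against 446, 156, 1993, 848 and 27 with the block. With 1 library left out the count fell to as low as 156 (Smad4 under TGFβ1, without Smad4 off, TGFβ1 of B73), 46 (Smad4 under SB505124, without Smad4 on, SB505124 of B73), 377 (TGFβ1 with Smad4 off, without Smad4 off, TGFβ1 of B87) and 0 (interaction, without Smad4 off, TGFβ1 of B73). For the line difference of the Smad4 response it reached 156 against 56 (without Smad4 off, TGFβ1 of B87). DESeq2 with the line called 136 in the interaction and 105 for the line difference of the Smad4 response (56 in edgeR), and no filter on low counts gave 783, 403, 284 and 399 for Smad4 under TGFβ1, Smad4 under SB505124, the interaction and that line difference. Depth limits *Wisp2* in B73 (6 to 11 counts), *Nov* in B73 under TGFβ1 (5 and 13 counts) and *Wisp3*.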
